A study of Nothobranchius furzeri with 20 samples.

Results

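A group of 26 gene IDs, out of 26739 in the table, was each abundant in a single library of skin at 10 weeks and again in a single library at 14 weeks. Members were chosen by their levels at 10 and 14 weeks. A member was any ID whose highest level among the 5 libraries of 10 weeks was at least 50 CPM and at least 10 times the second highest there, and which met the same 2 limits among the 5 libraries of 14 weeks. CPM are raw counts per 1000000 counts of the library. The levels at 10 and 14 weeks are therefore given as a description, without a test. The libraries of 5 and 7 weeks had no part in that choice. The rule selects 0.0972% of all IDs.

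The fish were males of the turquoise killifish, Nothobranchius furzeri, of strain GRZ, an inbred and short-lived line, and their skin was taken at 5, 7, 10 and 14 weeks of age, with 5 libraries per age and no treatment named in the labels. Library totals ran from 21581757 to 35137022 counts. Replicate numbers only follow accession order at each age, and a shared number links no libraries. Nothing in the labels says that each library is a fish of its own. The spread between them, and each p-value, may therefore be partly technical.

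Fish skin is a layered organ in which a living epidermis with mucus-secreting cells covers a dermis that carries scales and pigment cells, with muscle directly beneath. A piece of skin thus yields RNA from several cell types in proportions that depend on where and how deep it was taken. In such bulk RNA a difference in the number of cells cannot be told apart from a difference in RNA per cell. The deposited tables pair no ID with a gene name, and the species' RefSeq gene table lists none of the IDs, so the 26 genes are described by their levels, lengths and company, and their functions and marker genes of cell types were not analysed here.

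All 26 genes had their highest level of 14 weeks in replicate 4 of that age, and their highest level of 10 weeks in replicate 4 of that age. Their summed level was 17346 CPM in 14 weeks replicate 4, against 96.3, 127, 248 and 115 CPM in replicates 1, 2, 3 and 5 of 14 weeks. It was 25503 CPM in 10 weeks replicate 4, against 147, 115, 663 and 264 CPM in replicates 1, 2, 3 and 5 of 10 weeks. These 2 libraries thus stood apart by a factor of 69.8 and 38.4 over the next library of their age. The sum was 1.73% of all counts in 14 weeks replicate 4 (95% exact binomial interval 1.73% to 1.74%) and 2.55% in 10 weeks replicate 4 (2.54% to 2.56%). Such intervals cover counting error only.

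The summed level was far lower in every library of 7 and 5 weeks, but not uniform. At 7 weeks it was 306, 88.9, 94.6, 600 and 120 CPM in replicates 1 to 5. Replicate 4 was the highest, by a factor of 1.96 over replicate 1. At 5 weeks it was 55, 102, 328, 1513 and 172 CPM in replicates 1 to 5. Here too replicate 4 was the highest, by a factor of 4.61 over replicate 3. The median of the 5 sums was 172 CPM at 5 weeks, 120 CPM at 7 weeks, 264 CPM at 10 weeks and 127 CPM at 14 weeks. The means at 10 and 14 weeks thus rest on 1 library each.

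**Figure D1:**
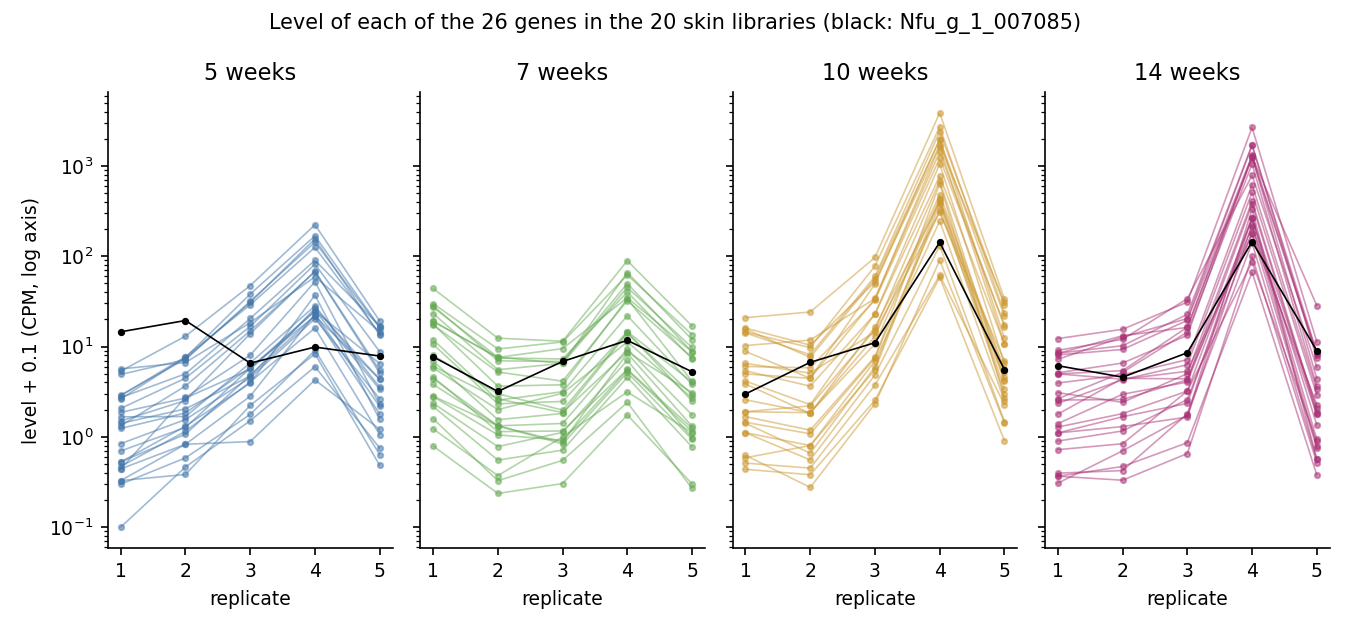
Level of each of the 26 genes in the 5 libraries of each age, in CPM plus 0.1 on a log axis. Each line joins the values of 1 gene, replicates have no order, and Nfu_g_1_007085 is black. Replicate 4 of 10 weeks and replicate 4 of 14 weeks stand far above the others, and replicate 4 of 5 weeks is the highest of its age for 25 of the 26.

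The name under which these genes were grouped, on in single adult libraries, holds for the size of the step and not for an absence elsewhere. Of the 520 values (26 genes in 20 libraries), 1 was a count of 0. Genes of low level rested on few counts, with 5 of the 26 under 10 counts in at least 1 library. Per member, the highest library of 14 weeks exceeded the second by a median factor of 82.4 (16.3 to 204), and that of 10 weeks by a median factor of 38.7 (13 to 86.5). The highest level itself ran from 66.6 to 2664 CPM in 14 weeks replicate 4, with a median of 354 CPM, and from 58.2 to 3863 CPM in 10 weeks replicate 4, with a median of 559 CPM.

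The most abundant member was Nfu_g_1_021459. Its level was 5.24, 12.9, 47.1, 223 and 19.1 CPM in replicates 1 to 5 of 5 weeks and 43.8, 12.3, 11.3, 89.1 and 16.8 CPM in those of 7 weeks. It was 20.8, 24, 96.9, 3863 and 33.3 CPM at 10 weeks and 12.1, 15.4, 30.9, 2664 and 11.2 CPM at 14 weeks. Within each age replicate 4 was the highest, and the other 16 libraries overlapped across ages. Per length, in RPKM (counts per kilobase of gene and 1000000 counts), it ranked 275 among all IDs in 5 weeks replicate 4, at 215 RPKM. It ranked 9 in 10 weeks replicate 4, at 3725 RPKM, and 19 in 14 weeks replicate 4, at 2569 RPKM.

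The next, Nfu_g_1_013506, had 4.81, 7.07, 31.5, 143 and 16.1 CPM in replicates 1 to 5 of 5 weeks and 29.8, 9.29, 11.1, 61.8 and 13.5 CPM in those of 7 weeks. It had 14.3, 9.63, 77.5, 2701 and 23.2 CPM at 10 weeks and 8.33, 10.1, 22.6, 1706 and 7.27 CPM at 14 weeks. The order of libraries within each of the first 2 ages was nearly that of Nfu_g_1_021459, with replicates 4, 3 and 5 above replicates 2 and 1 at 5 weeks and replicates 4 and 1 above the rest at 7 weeks.

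The member closest to the limits of the rule was Nfu_g_1_012346, which also had the smallest sum over 5 and 7 weeks. At 5 weeks it had 0, 0.364, 1.41, 5.87 and 0.652 CPM in replicates 1 to 5, where the count of 0 allows up to 0.0854 CPM (3 counts). At 7 weeks it had 0.69, 0.136, 0.204, 1.65 and 0.202 CPM. It had 0.337, 0.28, 2.44, 58.2 and 0.807 CPM at 10 weeks and 0.266, 0.369, 0.761, 66.6 and 0.278 CPM at 14 weeks. Even this lowest member had its highest level of each age in replicate 4. The ID just outside the rule, Nfu_g_1_007900, missed it at 14 weeks with 48.6 CPM in replicate 4, 28.5 times the second library. It had 54.8 CPM in 10 weeks replicate 4, 29.1 times the second.

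The libraries of 7 and 5 weeks, which the rule did not use, ranked alike for nearly every member. At 7 weeks all 26 members had their highest level in replicate 4, as did 20.8% of the 18052 IDs tested between 7 and 5 weeks. At 5 weeks 25 of the 26 had it in replicate 4, as did 10.2% of the tested IDs. Both held for 25 members and for 0.942% of the tested IDs. The choice of these measures was made after the values were seen.

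The step was smaller than at 10 and 14 weeks. At 5 weeks it was steep beside that of other genes, and at 7 weeks the median member lay below the 95th percentile of all tested IDs. At 7 weeks the level of 22 members in replicate 4 was at least 1.5 times that in the second library, against 2.13% of the tested IDs. The median factor over the second library was 1.94 (1.22 to 3.41), against a median of 1.17 and a 95th percentile of 2.3 among all tested IDs. At 5 weeks the level of 25 members in replicate 4 was at least 3 times the second-highest, a step found in 0.222% of the tested IDs. These 25 members were most of the 40 tested IDs with that step. The median factor there was 4.48 among the members (1.34 to 9.67), against a median of 1.12 and a 95th percentile of 1.92 among all tested IDs. With the full limits of the rule, 0 members qualified at 7 weeks, where 0.0449% of all IDs did, and 0 at 5 weeks, where 0.0112% did.

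**Figure D2:**
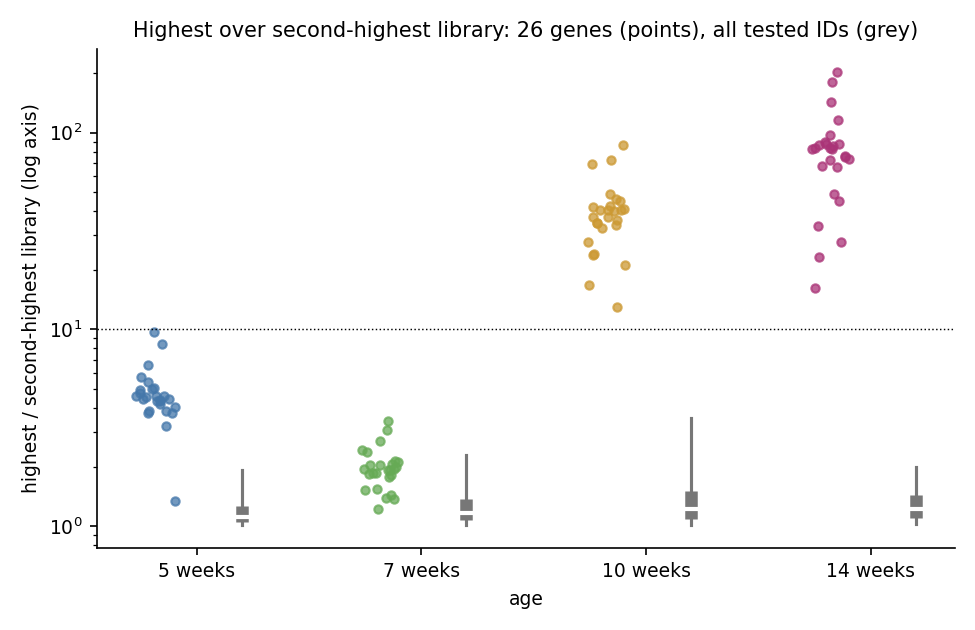
Highest over second-highest library within each age, on a log axis, for the 26 genes (points) and for all IDs tested between 7 and 5 weeks (grey, with a white mark at the median, a thick bar from the 25th to the 75th percentile and a thin bar from the 5th to the 95th). The dotted line is the factor of 10 of the rule, which fixed the points at 10 and 14 weeks; at 5 weeks all points but 1 lie between 3.23 and 9.67, above the grey bars.

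The likeness at 7 and 5 weeks reached beyond the top library. At 7 weeks all 26 members had replicate 1 as the second-highest after replicate 4, against 4.02% of the tested IDs, while the order of replicates 2, 3 and 5, whose sums were close, varied between members. At 5 weeks 23 had replicate 3 second after replicate 4, against 3.41% of the tested IDs, and 21 had the complete order 4, 3, 5, 2, 1. With replicate 4 left out, replicate 1 was the highest at 7 weeks in 26 members (16.4% of the tested IDs) and replicate 3 at 5 weeks in 23 (10.7%). At 14 weeks replicate 3 came next after replicate 4 in 23 members, and with replicate 4 left out it was the highest in 48.6% of the tested IDs. At 10 weeks it came next in 26 members, with a share of 56.2% of the tested IDs, so the place of replicate 3 at these ages was common among all genes. An exception at 14 weeks was Nfu_g_1_012205, with 4.88, 5.31, 16.3, 1266 and 28.3 CPM in replicates 1 to 5, where replicate 5 was second.

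Between members, the median Pearson correlation of log2(CPM + 0.5) over the 10 libraries of 5 and 7 weeks was 0.964. Without Nfu_g_1_007085 it was 0.967 and the lowest pair reached 0.814. These are correlations over 10 points that share libraries and depth, and they are given as a description. Of 18026 other tested IDs, 4 had a correlation of at least 0.9 with the mean profile of the 25 members over the same libraries, and the median of these IDs was −0.309. Of those 4, 3 were highest in both 14 weeks replicate 4 and 10 weeks replicate 4. The share of other IDs highest in both is not given here, and 4 IDs are few, so this count is a description. The remaining ID, Nfu_g_1_022896, stayed between 0.541 and 1.26 CPM in every library, so its correlation rests on small differences at a low level. Each of the 4 stayed below 50 CPM at 14 and at 10 weeks. Of these, Nfu_g_1_021491, reached 42 CPM in replicate 4 of 14 weeks and 43.2 CPM in replicate 4 of 10 weeks.

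The share of the median member in the sum varied less between libraries than the sum itself. At 10 and 14 weeks the rule makes every member rise in 1 library, so likeness there is partly forced. The shares were not set against those of other IDs. Nfu_g_1_021459 made up 14.7% of the sum in 5 weeks replicate 4, 14.9% in 7 weeks replicate 4, 15.1% in 10 weeks replicate 4 and 15.4% in 14 weeks replicate 4. In the other 16 libraries its share ran from 9.52% to 20.8%. Across all 20 libraries the log2 share of a member in the sum had a median SD of 0.41, with 0.69 as the second largest SD and 1.44, that of Nfu_g_1_007085, as the largest. In the median member, the level in 7 weeks replicate 4 was 2.49% of that in 10 weeks replicate 4 (1.19% to 8.15%), and that in 5 weeks replicate 4 was 6.36% of it (2.5% to 12%).

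**Figure D3:**
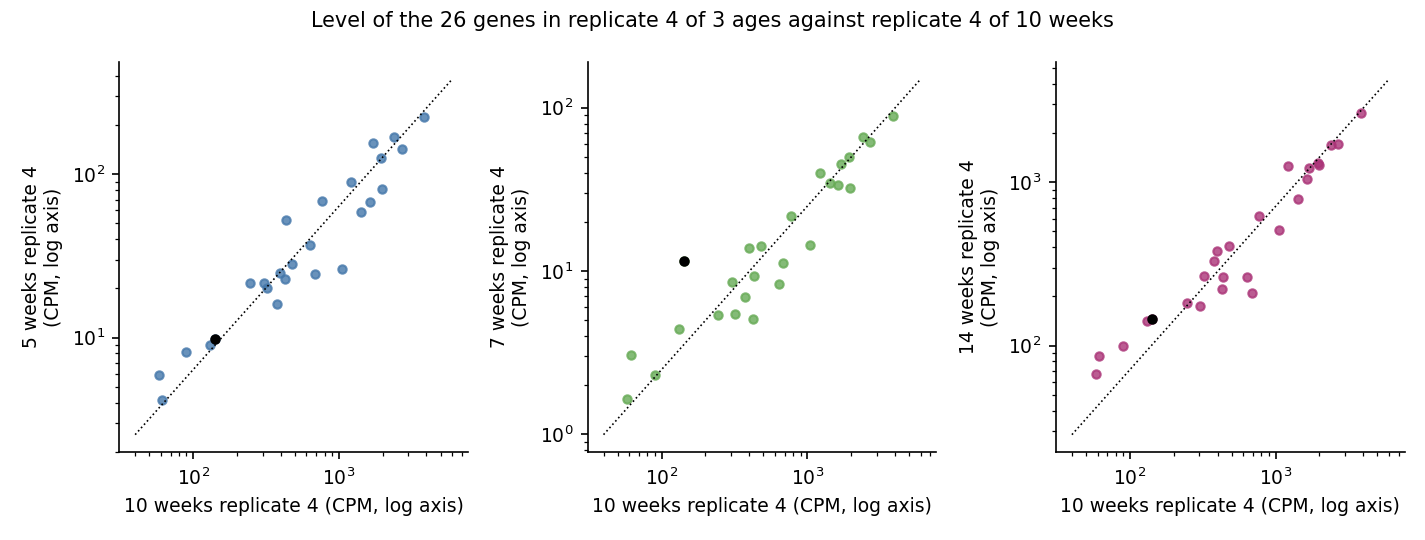
Level of the 26 genes in replicate 4 of 5, 7 and 14 weeks (vertical) against replicate 4 of 10 weeks (horizontal), in CPM on log axes. The dotted lines are the median ratios of 6.36%, 2.49% and 0.712, and Nfu_g_1_007085 is black; it lies above the line at 7 weeks, where its level was 8.15% of that at 10 weeks.

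The 2 libraries with the highest levels did not hold the genes in exactly the same proportion. The level in 14 weeks replicate 4 over that in 10 weeks replicate 4 had a median of 0.712, with 20 members lower and 6 higher in 14 weeks replicate 4. This split was not set against other IDs, and it uses the 2 libraries through which the members passed the rule. The ratio was smallest for Nfu_g_1_013094, at 0.307 (211 against 685 CPM). It was largest for Nfu_g_1_017153, at 1.41 (86.3 against 61.4 CPM). With 1 such library per age, this range has no replicate check.

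Nfu_g_1_007085 differed from the other 25 in its highest library at 5 weeks. At 5 weeks its level was 14.5, 19.3, 6.45, 9.76 and 7.75 CPM in replicates 1 to 5, highest in replicate 2, where the other members were low. At 7 weeks it was 7.59, 3.08, 6.73, 11.6 and 5.15 CPM, with replicate 4 first and replicate 1 second as in the other members. It was 2.88, 6.58, 10.9, 142 and 5.45 CPM at 10 weeks and 6.03, 4.48, 8.44, 145 and 8.9 CPM at 14 weeks, where replicate 4 stood above the rest as in the other members. Over 5 and 7 weeks its correlation with the mean of the other members was 0.0622. It was the member with the smallest steps, 16.3 times the second library at 14 weeks and 13 times at 10 weeks.

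Per length, most members were among the more abundant transcripts of 10 weeks replicate 4 and 14 weeks replicate 4. The floor of 50 CPM in the rule favours high ranks in these libraries, so the ranks there are a description. RPKM were recomputed with each library's own total and ranked among all 26739 IDs. In 5 weeks replicate 4, which the rule did not use, 8 of the 26 ranked in the top 1000. In 10 weeks replicate 4 it was 24, and in 14 weeks replicate 4 also 24. In the same order the median member stood at 31.3, 535 and 289 RPKM. The genes were short. Their median length was 1199 bases (378 to 4387), against 2745 bases in the 18047 tested IDs with a length, and 22 of the 26 were below that median. Lengths are those that the deposited RPKM imply. Models without untranslated ends would be shorter, for members and other IDs alike, and a part of this in the difference was not tested.

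In the order of the deposited table, whose meaning the files do not give, 10 of the 26 members stood in 5 pairs of neighbouring rows. The count is a description only, since it was not set against other IDs. Nfu_g_1_020840 stood beside Nfu_g_1_021459 and was less abundant, with 1054 CPM in 14 weeks replicate 4 and 1640 CPM in that of 10 weeks. The pair Nfu_g_1_003952 (2089 bases) and Nfu_g_1_004027 (1128 bases) reached 1689 and 1308 CPM in 14 weeks replicate 4. The pair Nfu_g_1_010414 (762 bases) and Nfu_g_1_010488 (3034 bases) reached 1231 and 620 CPM there.

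Nfu_g_1_001105 and Nfu_g_1_001287 formed another pair, with lengths of 753 and 741 bases. They reached 262 and 222 CPM in 14 weeks replicate 4. Both had their second-highest level of 10 weeks in replicate 3, at 7.37 and 5.86 CPM, as did all 26 members. The pair had the 2 largest steps at 5 weeks, 9.67 and 8.39 times the second library. The last pair, Nfu_g_1_012346 (378 bases) and Nfu_g_1_012347 (504 bases), held low levels, with 66.6 and 141 CPM in 14 weeks replicate 4. Whether such neighbours are near-identical copies could not be read from the files, so how reads were divided within a pair is uncertain.

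A second and larger group shared the 10 weeks library but not the pattern at 14 weeks. Of 33 IDs that met the limits at 14 weeks (0.123% of all), 26 (78.8%) were members. Replicate 4 was the highest in exactly these 26, replicate 3 in 4 and replicate 1 in 3. Of 165 IDs that met the limits at 10 weeks (0.617%), all were highest in replicate 4, and 26 (15.8%) were members. The 139 IDs with the pattern at 10 weeks alone were also mostly highest in 14 weeks replicate 4 (132 of 139). At 14 weeks their highest library exceeded the second by a median factor of 1.83. Among all tested IDs the median of this factor was 1.22 and the 95th percentile 2. The median level of the 139 was 155 CPM in 14 weeks replicate 4 and 95.1 CPM in replicate 5. That their step at 14 weeks is smaller than that of the members follows from the rule. The share of all IDs highest in 14 weeks replicate 4 is not given here, so the count of 132 is a description.

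The 2 groups also parted in the libraries the rule did not use. The highest 7 weeks library was replicate 4 for 26 of the 26 members, 5 of the 139 others and 20.8% of the tested IDs. Of the 139, 127 were highest in replicate 3. The highest 5 weeks library was replicate 4 for 25 of the 26 members, 11 of the 139 others and 10.2% of the tested IDs. Of the 139, 125 were highest in replicate 5. The shares of all IDs highest in 7 weeks replicate 3 and 5 weeks replicate 5 are not given here. In 14 weeks replicate 5 the members summed to 115 CPM, among the lower libraries of the series, and the median member was at 2.09 CPM. At 7 and 5 weeks the highest libraries thus differed between the members and most of the 139.

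**Figure D4:**
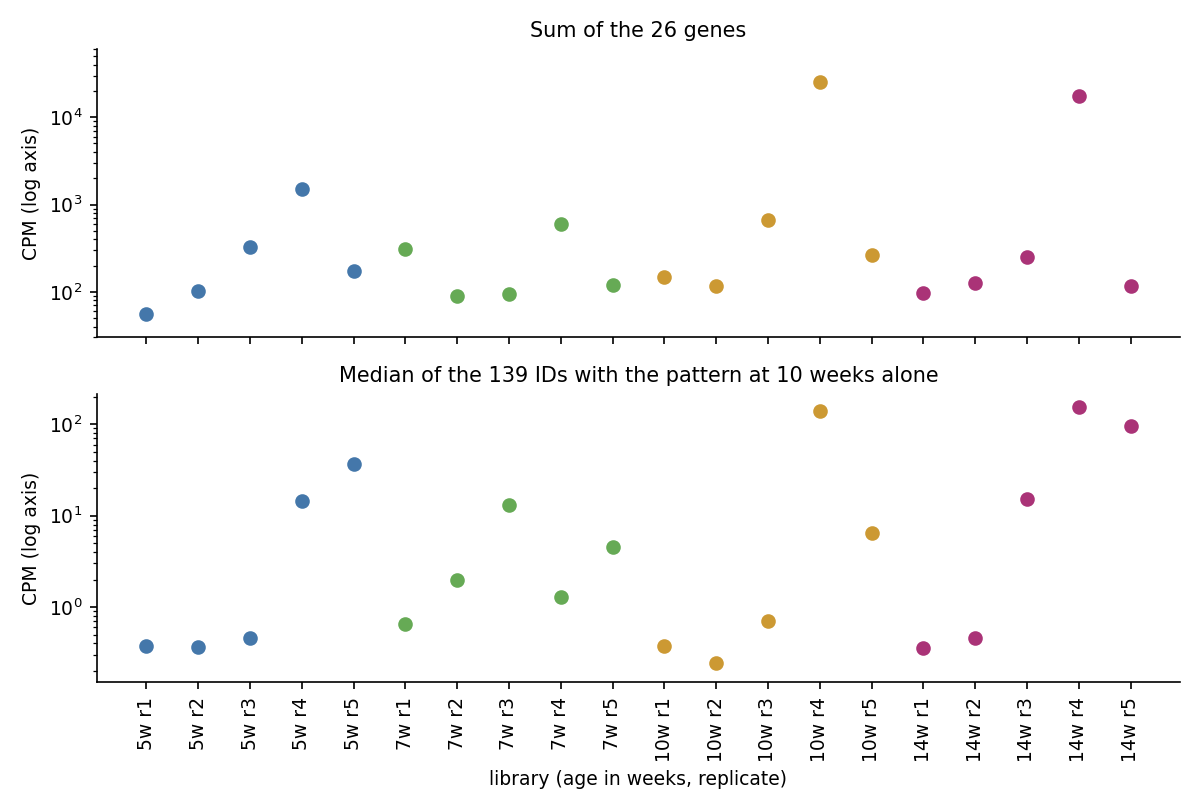
Sum of the 26 genes (top) and median of the 139 IDs with the pattern at 10 weeks alone (bottom) in each of the 20 libraries, in CPM on log axes. Both are high in replicate 4 of 10 and of 14 weeks. A sum and a median are unlike measures, so levels cannot be compared between the panels. Replicate 5 of 14 weeks is at a sum of 115 CPM in the top panel, where the median member was at 2.09 CPM. In the bottom panel it is at a median of 95.1 CPM, next below replicate 4 of that age.

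The libraries rich in the members also differed in other ways whose part in these levels was not tested. The TMM factor, a scaling factor that departs from 1 when the composition of a library does, was 1.32 in 14 weeks replicate 4 and 1.26 in 10 weeks replicate 4, with 14 weeks replicate 3 (1.27) and 7 weeks replicate 3 (1.25) close by. It was 0.742, the lowest of the 20, in 5 weeks replicate 4, and 1.08, nearer to 1, in 7 weeks replicate 4. With these factors the sum of the members in the replicates 4 of 5, 7, 10 and 14 weeks was 2040, 556, 20208 and 13151 CPM. Replicate 4 remained the highest library at 7 weeks for 26 members and at 5 weeks for 25 under both TMM and DESeq2 size factors.

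Between 7 and 5 weeks, the contrast of ages that uses no library of the rule, none of the 26 members was called. All 26 had enough counts in these 10 libraries to be tested. In edgeR's quasi-likelihood test 0 members had an adjusted p under 0.05, against 1.86% of the 18052 tested IDs (0.781% higher and 1.07% lower at 7 weeks, or 141 and 194 IDs). At an unadjusted p under 0.05 there was 1 member, Nfu_g_1_007085, against 23.2% of the tested IDs. On leaving out any 1 of the 10 libraries the share of all IDs called fell to between 0% and 0.437%. DESeq2 called 0 members, against 11.7% of the tested IDs, and 2 members had an unadjusted p under 0.05, against 4683 of the 18052 IDs. With 26 members, 0 calls in edgeR lie near that background and say nothing particular about them. The log2 fold changes of 7 over 5 weeks were all below 0, with a median of −1.20 (−2.45 to −0.48), against −0.01 for all tested IDs. Their median SE was 1.02, against 0.247 for all tested IDs.

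Nfu_g_1_021459 had a log2 fold change of −1.23 (SE 1.03, 95% interval −3.49 to 1.03, adjusted p = 0.483, edgeR). Nfu_g_1_007085 had one of −0.89 (SE 0.34, 95% interval −1.65 to −0.14) with an adjusted p of 0.153 in edgeR, the smallest of the 26. Its levels at 7 weeks, 3.08 to 11.6 CPM, overlap those at 5 weeks, 6.45 to 19.3 CPM. The largest fitted difference, −2.45 for Nfu_g_1_001125 (SE 1.2, adjusted p = 0.247, edgeR), had the 95% interval −5.1 to 0.2. The intervals are wide, so neither a several-fold difference nor its absence is shown.

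The common sign rested on 1 library. Without 5 weeks replicate 4 the median log2 fold change of the members was 0.41, with 23 above 0 and 3 below. Without 7 weeks replicate 4 it was −1.78 with all 26 below 0. Without both libraries it was −0.08, with 10 of the 25 members tested there above 0 and 15 below. No member was called in any of these fits, in which 0.406%, 0% and 0.011% of the tested IDs were called in turn.

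**Figure D5:**
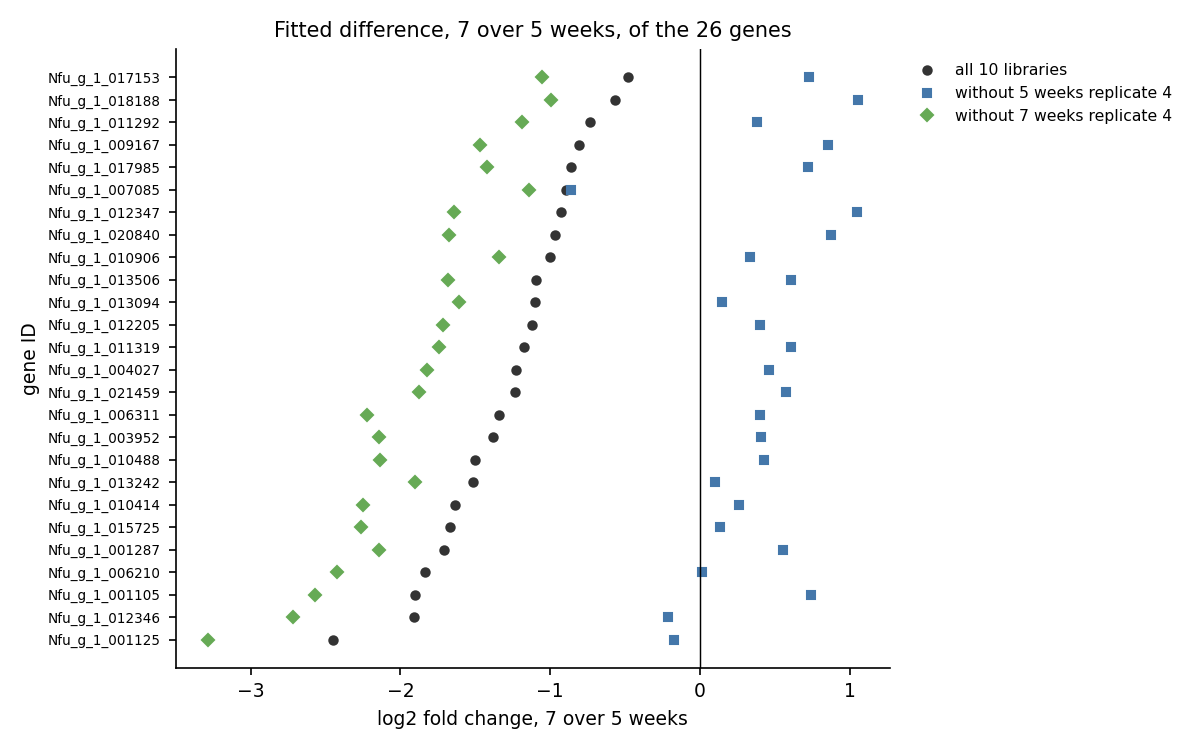
Fitted log2 fold change of 7 over 5 weeks for each of the 26 genes with all 10 libraries (black circles), without 5 weeks replicate 4 (blue squares) and without 7 weeks replicate 4 (green diamonds). The median is −1.20 with all libraries, 0.41 without 5 weeks replicate 4 and −1.78 without 7 weeks replicate 4.

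Comparisons of 10 or 14 weeks with another age use the libraries that chose the members and were not tested. The median sum over the 5 libraries of an age, 127 CPM at 14 weeks and 264 CPM at 10 weeks, lay within the range of sums at 7 weeks (88.9 to 600 CPM) and within that at 5 weeks (55 to 1513 CPM). The SD of the log2 sum was 1.83 at 5 weeks, 1.21 at 7 weeks, 3.18 at 10 weeks and 3.17 at 14 weeks (n = 5 each). The rule asks for a large gap within 10 and within 14 weeks, so the larger SDs there follow largely from it.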

How the data were processed

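Skin of male GRZ killifish was sequenced in 20 libraries, 5 at each of 5, 7, 10 and 14 weeks. Per the labels' protocols, libraries were prepared from total RNA with the TruSeq RNA kit version 2. The authors deposited raw counts per gene ID and RPKM values. The submitters' processing notes name featureCounts 1.4.6-p4, STAR 2.4.1d and CASAVA 1.8.2. The sources used here give no genome build, annotation or strand setting, so reads of overlapping genes or near copies may have been split between them.

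CPM is the count per 1000000 of the library's total over all IDs. The contrast of 7 with 5 weeks used edgeR 4.0.16 in R 4.3.3 on these 10 libraries alone (filterByExpr, TMM, glmQLFit, glmQLFTest, Benjamini-Hochberg over 18052 IDs at 0.05). The biological coefficient of variation was 38.9%. DESeq2 1.42.0 was an alternative. The fit was tested on simulated data. The SE was taken as the log2 fold change divided by the root of F.

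The deposited RPKM values were made with 25 depths that run down the table instead of each library's own. Of these, 20 matched the library totals and 5 matched none. Gene lengths were recovered with them. With these lengths 100% of the RPKM values of 14606 IDs came back within 0.1% or 0.0011. RPKM given here were recomputed with each library's own total.

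The members were named by rule: the 2 most abundant, those with the smallest and largest sum at 5 and 7 weeks, and those just inside and outside the limits. Every other ID in the text was added after its values were seen. The members, lists and tests were chosen with earlier results of these data known. Marker lists of cell types could not be matched to IDs and were not used. Alternatives were other scalings, limits and filters, and leaving out each library.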

Additional observations from a re-analysis of the deposited data

Results flagged for a closer look

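In several groups of 5 libraries 1 library lay far from the other 4, measured as its gap to the nearest one over the whole range. The limit was 0.71, which chance passes in about 1 of 20 groups of 5 normally distributed values. Whether CPM are so distributed was not tested. At 5 weeks replicate 4 was the far library for the summed level of the 26 members (0.813), Nfu_g_1_021459 (0.807), Nfu_g_1_013506 (0.807) and Nfu_g_1_012346 (0.76). In all, 2 of the 26 members passed the limit at 7 weeks, against 9.2% of the tested IDs, and 25 did at 5 weeks, against 6.86%. At 10 and 14 weeks the rule itself forces such a gap for each member, so the values are a description. At 10 weeks replicate 4 stood apart by 0.978 for the sum, 0.98 for Nfu_g_1_021459, 0.975 for Nfu_g_1_013506, 0.963 for Nfu_g_1_012346 and 0.942 for Nfu_g_1_007085. At 14 weeks the gap of replicate 4 was 0.991 for the sum, 0.993 for Nfu_g_1_021459, 0.991 for Nfu_g_1_013506, 0.993 for Nfu_g_1_012346 and 0.969 for Nfu_g_1_007085.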

How the results depend on the processing

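The choice of members rested on 3 libraries. Leaving out 1 library at a time gave 0 to 123 members: 0 without 10 weeks replicate 4, 29 without 14 weeks replicate 4, none of them shared with the 26, and 123 without 14 weeks replicate 5, all 26 among them. Without both replicates 4, an alternative added later, 7 IDs met the limits, none of the 26. TMM or DESeq2 size factors kept 24 of the 26, a floor of 20 or 100 CPM gave 34 or 23, and a ratio of 5 or 20 gave 28 or 24. At 7 weeks 0 members met the limits in each setting. At 5 weeks, where also 0 did, 2 did with a ratio of 5 and 0 to 6 when 1 library was left out (6 without 5 weeks replicate 3). A step of 5 in place of 3 in 5 weeks replicate 4, added later, left 6 of 25 members. Of all tested IDs, 335 were called between 7 and 5 weeks, but 2118 by DESeq2, 105 without a filter, 0 to 80 on leaving out any 1 of the 10 libraries and 2 without replicate 4 of both ages. No member was called in any of these. The fold change of 7 over 5 weeks turned to 0.57 for Nfu_g_1_021459 and 0.61 for Nfu_g_1_013506 without 5 weeks replicate 4 (−1.88 and −1.68 at the other end, without 7 weeks replicate 4), and to 0.011 for Nfu_g_1_013506 without replicate 4 of both ages. The cause was not tested. No paired analysis was possible because replicates are numbered in accession order only. Members of low level rest on few counts.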

Other observations

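Beside the 25 members, 15 other tested IDs had a level in 5 weeks replicate 4 of at least 3 times the second library. Of these 15, 3 were highest in both 14 weeks replicate 4 and 10 weeks replicate 4. The share of other IDs highest in both is not given here, so this count is a description. In 7 weeks replicate 4, 3 of the 15 were highest, against 20.8% of the tested IDs. The count at 7 weeks thus does not stand out from other IDs. A level in replicate 4 of at least 10 times the second library was seen in 2 of the 15 at 10 weeks and in 2 at 14 weeks. The counts of these larger steps were not set against other IDs. In the replicates 4 of 5, 7, 10 and 14 weeks the median level of the 15 was 15.3, 2.55, 54.8 and 13.8 CPM.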
